A study of Mus musculus with 6 samples.

Results

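The miR-148 and miR-152 family comprises 3 miRNA hairpins of the mouse, Mir148a, Mir148b and Mir152, whose 3p strands begin with the same bases. Its loci were chosen by mature identifier and position, not by a cutoff on a measured value: the rows of miR-148a-3p (MIMAT0000516), miR-148b-3p (MIMAT0000580) and miR-152-3p (MIMAT0000162), and the locus of the opposite arm of each hairpin within 80 bases on the same strand. The family was, however, proposed with the old and young values of these libraries known, so its old against young values are given as a description. This gave 6 of the 2110 loci in the table, namely 3 of the 3p and 3 of the 5p arm. Small RNA was sequenced from extracellular vesicles, called exosomes in the labels, that were collected from muscle of old mice (3 libraries) and of young mice (3 libraries). The labels used here state neither ages, sex and strain nor which muscles were taken and how vesicles were isolated. They also leave unsaid whether each replicate is another animal, and the spread between libraries may therefore be technical.

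A miRNA guides an Argonaute protein to messenger RNAs through its seed, bases 2 to 8 of the mature strand, and strands that share a seed can recognise many of the same sites. Members of this family are known to repress the maintenance DNA methyltransferase DNMT1 in human cells. In the mouse myoblast line C2C12, miR-148a promotes differentiation into myotubes and acts on the kinase Rock1. In the liver, where miR-148a is abundant, it represses the low-density lipoprotein receptor.

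The 3p strands are printed first because their shared start defines the family, with the seed in capitals. They are given 5′ to 3′ as RefSeq lists them on GRCm38.p6, the assembly also called mm10.
miR-152-3p: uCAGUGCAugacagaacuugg
miR-148b-3p: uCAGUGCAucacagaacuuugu
miR-148a-3p: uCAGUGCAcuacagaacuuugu

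The first 8 bases were the same in all 3, and the differences lay behind the seed. Counted from 1 at the 5′ end, with the base of miR-148a-3p first, miR-148b-3p differed from it by C9U and U10C, at 2 of 22 positions. miR-152-3p differed from miR-148a-3p by C9U, U10G and U20G, at 3 of 21 positions. With the base of miR-148b-3p first, miR-152-3p differed from miR-148b-3p by C10G and U20G. Of 1675 mature identifiers with a sequence in the RefSeq table, only these 3 held CAGUGCA at bases 2 to 8. The same 7 letters stood somewhere in 17 of them (1.01%), and in 7 outside the family they formed bases 1 to 7. Among these 7 were miR-130a-3p and miR-301a-3p, named after their values were seen, which averaged 388 and 252 CPM (counts scaled to library size, defined below), more than any member of the family.

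The hairpins show where both arms lie, with the 5p and the 3p mature strand in capitals.
Mir152: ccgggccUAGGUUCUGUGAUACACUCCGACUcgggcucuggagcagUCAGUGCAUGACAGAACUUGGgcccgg
Mir148b: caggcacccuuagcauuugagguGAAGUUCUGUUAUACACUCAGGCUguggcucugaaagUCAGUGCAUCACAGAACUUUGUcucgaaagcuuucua
Mir148a: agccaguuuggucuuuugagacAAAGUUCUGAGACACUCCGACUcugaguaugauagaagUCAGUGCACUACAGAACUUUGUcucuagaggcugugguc

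Among the 5p strands, miR-148a-5p and miR-148b-5p shared the seed AAGUUCU, while miR-152-5p had AGGUUCU. None of the 6 mature strands held GGAG, a motif studied for sorting of miRNAs into exosomes of human T cells, searched on the mature strand as printed. It stood in 29 of the 264 tested identifiers with a sequence (11%). The 3 hairpins lie apart. Mir152 is on the plus strand of chromosome 11 in an intron of Copz2 (miR-152-3p at chr11:96850439-96850459), and Mir148b on the plus strand of chromosome 15 in an intron of Copz1 (miR-148b-3p at chr15:103285185-103285206). Both host genes run in the same direction as the miRNA and encode zeta subunits of the COPI vesicle coat, and in both the hairpin lies in intron 1 of a transcript with 9 exons and in no exon of any GENCODE M21 transcript. Mir148a lies on the minus strand of chromosome 6 (miR-148a-3p at chr6:51269829-51269850), where that annotation has no host gene. None of the 6 loci overlapped another locus of the table, unlike 106 loci of the table, at which reads that touch both loci go to neither in featureCounts without an option for overlaps.

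The libraries held 904892 to 1417733 counts in the old group and 1459826 to 1706396 counts in the young group. Old replicate 1 stood apart: in a chi-square test of the counts over loci, the statistic per degree of freedom was 176 and 281 against old replicates 2 and 3, while the other pairs within a group had 14.4 to 30.3. All 6 markers fixed for skeletal and heart muscle had counts. Together they took 4.61% to 9.91% of the counts in old libraries, with the highest value in old replicate 1, and 4.95% to 6.26% in young libraries. The family took a small share. Its 6 loci held 0.0167%, 0.0188% and 0.0131% of all counts in old replicates 1, 2 and 3, and 0.0080%, 0.0128% and 0.0123% in young replicates 1, 2 and 3. The mean share was 0.0162% ± 0.00288 in old and 0.0110% ± 0.00262 in young libraries (SD, n = 3 each). The groups did not overlap, but the 95% exact binomial intervals of old replicate 3, 0.0112% to 0.0151%, and of young replicate 2, 0.0111% to 0.0146%, overlapped. Scaled by library totals, as these shares are, single loci often did the same: all old libraries lay above all young ones at 44 of the 347 loci tested below. When miR-21a-5p, the most abundant locus, was left out of the total, the shares overlapped, with 0.0258% in old replicate 1 and 0.0266% in young replicate 2.

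Levels are given as CPM, the counts of a locus divided by the TMM-scaled library size and brought to a common total. A level is thus relative to the rest of the counted miRNA, and it is not divided by length, since the 3p loci span 21 or 22 bases each. Levels of different miRNAs compare reads, and equal capture of different sequences was not tested. miR-152-3p was the most abundant member. It had 107, 127 and 90.8 CPM in old replicates 1, 2 and 3, and 45.5, 87.8 and 82.1 CPM in young replicates 1, 2 and 3. Behind these values stood 106, 177 and 117 counts in old and 66, 146 and 128 counts in young libraries. The old libraries all lay above the young ones, although old replicate 3 was only slightly higher than young replicate 2, and young replicate 1 was well below the other young libraries. The 95% exact Poisson interval of young replicate 1, 35.2 to 57.9 CPM, lay apart from those of the other 5 libraries, which began at 68.5 CPM or higher. On library totals without TMM the groups overlapped, with 84.5 CPM in old replicate 3 and 85.6 CPM in young replicate 2. These intervals cover counting error only. They may be too narrow even for that, since reads without molecular identifiers are not independent molecules.

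miR-148b-3p came second. It had 23.2, 39.4 and 31.8 CPM in old replicates 1, 2 and 3, and 27.6, 29.5 and 23.1 CPM in young replicates 1, 2 and 3, from 23 to 55 counts per library. The groups overlapped, with the highest library and the second lowest both in the old group. miR-148a-3p, described above in myogenic differentiation, was the least abundant of the 3. It had 20.2, 22.2 and 14.0 CPM in old replicates 1, 2 and 3, and 6.89, 12.03 and 14.1 CPM in young replicates 1, 2 and 3, from 10 to 31 counts per library. Old replicates 1 and 2 were the highest and young replicate 1 the lowest, and old replicate 3 lay within the young range. At such counts a single library is imprecise: the interval of young replicate 1 ran from 3.31 to 12.7 CPM and that of old replicate 1 from 12.3 to 31.1 CPM.

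**Figure D1:**
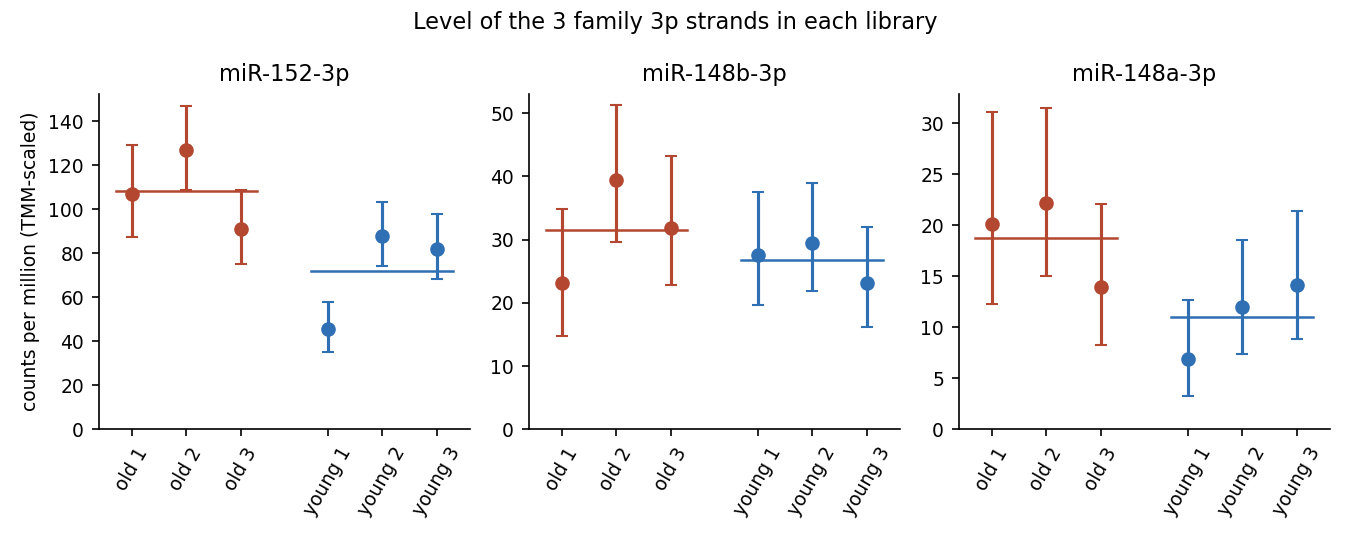
Level of miR-152-3p, miR-148b-3p and miR-148a-3p in each library, in CPM on TMM-scaled library sizes; each panel has its own axis from 0, points are libraries (red, old; blue, young), bars are 95% exact Poisson intervals and horizontal lines are group means. The old libraries lie between 90.8 and 127 CPM and the young ones between 45.5 and 87.8 CPM for miR-152-3p, while the groups overlap for the other strands.

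The order miR-152-3p, miR-148b-3p, miR-148a-3p held in each of the 6 libraries. By mean CPM, with identical copies summed, miR-152-3p ranked 146th, miR-148b-3p 207th and miR-148a-3p 254th of 891 mature identifiers with a count. In single libraries miR-152-3p ranked between 128th and 178th, with the lowest place in young replicate 1. The identifiers next above and below miR-152-3p were miR-449a-5p at 94.9 CPM and miR-6236 at 89.2 CPM. Those around miR-148b-3p were miR-142a-5p at 29.1 CPM and miR-669l-5p at 28.7 CPM, and those around miR-148a-3p were miR-542-3p at 15.3 CPM and miR-330-3p at 14.7 CPM. The distance to each of these neighbours was smaller than the spread of the family member between libraries. The 95% intervals of the ratios of miR-152-3p to the other members lay above 1 in each library. For miR-148b-3p over miR-148a-3p the interval covered 1 in old replicate 1, where 23 and 20 counts gave a ratio of 1.15 (95% interval 0.604 to 2.21). It also did so in young replicate 3, where the ratio was 1.64 (0.937 to 2.92).

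Ratios of counts within a library do not depend on how libraries are scaled. They are ratios of reads from strands of different sequence, and whether these strands were captured equally well was not tested. miR-152-3p over miR-148a-3p stood at 5.30, 5.71 and 6.50 in old replicates 1, 2 and 3, and at 6.60, 7.30 and 5.82 in young replicates 1, 2 and 3. This ratio stayed between 5.30 and 7.30, and the interval of every library covered the values of all the others. With 10 to 31 counts of miR-148a-3p per library the intervals are wide, 3.37 to 14.4 in young replicate 1. Their coverage therefore cannot show that the ratio was even. miR-152-3p over miR-148b-3p ranged more widely, at 4.61, 3.22 and 2.85 in old replicates 1, 2 and 3 and at 1.65, 2.98 and 3.56 in young replicates 1, 2 and 3. Its highest value, in old replicate 1 (interval 2.92 to 7.58), and its lowest, in young replicate 1 (1.10 to 2.51), had intervals that did not overlap. These libraries were picked as the extremes after their values were seen, which favours such a gap, and the intervals cover counting error only.

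**Figure D2:**
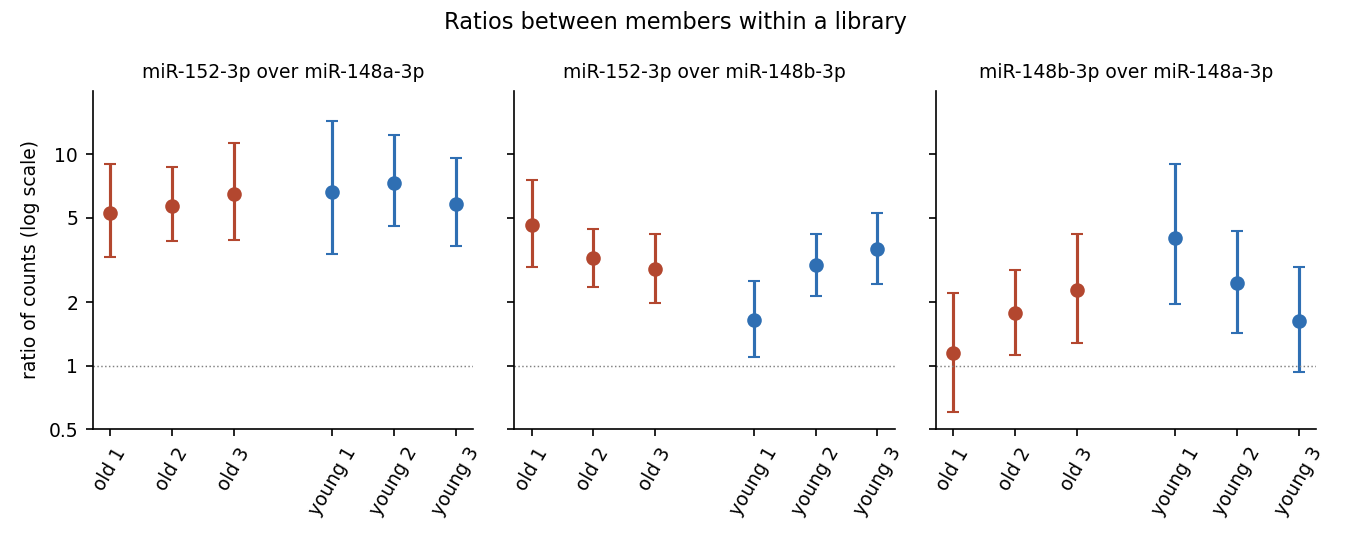
Ratios of counts between members within each library on a shared log axis; points are libraries (red, old; blue, young), bars are 95% exact binomial intervals and the dotted line marks equal counts. The ratio of miR-152-3p to miR-148a-3p lies between 5.30 and 7.30 in all 6 libraries, while that of miR-152-3p to miR-148b-3p runs from 1.65 to 4.61.

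As shares of the 3p counts of the family, miR-152-3p made up 68.3% ± 2.49 in old and 64.5% ± 6.64 in young libraries, miR-148b-3p 19.9% ± 4.03 in old and 25.5% ± 7.93 in young, and miR-148a-3p 11.8% ± 1.60 in old and 9.92% ± 1.69 in young (SD, n = 3 each). The groups overlapped for each strand. Young replicate 1 departed most, with 56.9% miR-152-3p and 34.5% miR-148b-3p, against 66.5% to 71.1% and 15.4% to 23.3% in the other 5 libraries.

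**Figure D3:**
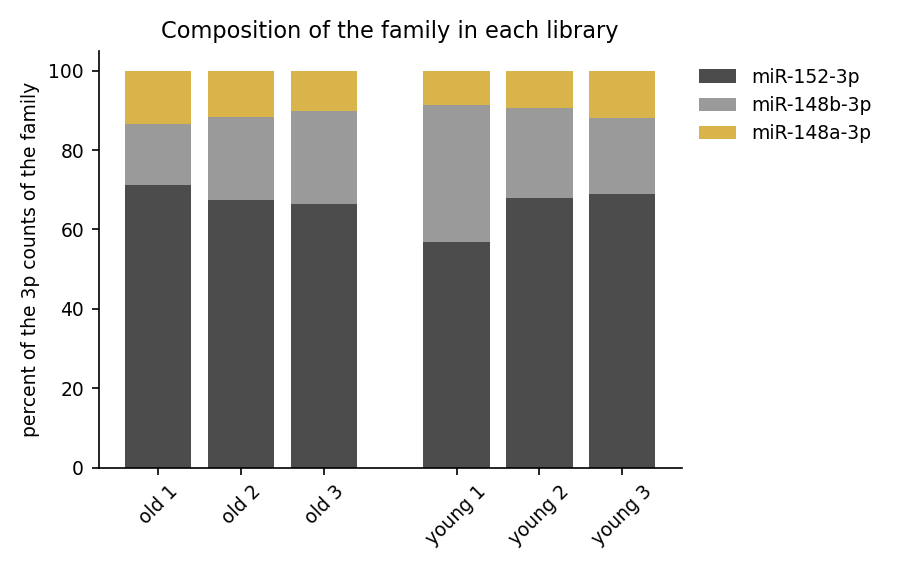
Share of the 3p counts of the family held by each member in each library, in percent, with old libraries to the left of young ones. miR-152-3p takes 66.5% to 71.1% in every library but young replicate 1, where it takes 56.9% and miR-148b-3p 34.5%.

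Across all 6 libraries, log2 CPM of miR-148a-3p and miR-152-3p went together (Pearson r = 0.97, Spearman rho = 0.83), and r was 0.85 in the 4 libraries left without the extreme values of miR-148a-3p, young replicate 1 and old replicate 2. miR-148b-3p followed neither of them closely by r, which was 0.22 to miR-148a-3p and 0.34 to miR-152-3p. Spearman rho was 0.14 to miR-148a-3p and 0.54 to miR-152-3p. Both values of r became negative, -0.62 and -0.17, without the 2 libraries most extreme for the first-named strand of each pair, miR-148a-3p and miR-148b-3p. These correlations are descriptions over 6 libraries that share their scaling and fall into 2 age groups. Outside the family, the loci most like miR-148a-3p over the same 6 libraries were miR-200a-3p (r = 0.97, at 6.51 CPM), miR-26a-5p (0.95) and miR-193a-3p (0.95). Those most like miR-152-3p were miR-193a-3p (0.95), let-7j (0.95) and miR-26a-5p (0.93), so that miR-193a-3p and miR-26a-5p stood in both lists. At miR-193a-3p the old libraries had 111, 115 and 93.2 CPM in replicates 1, 2 and 3, and the young ones 77.9, 101 and 101 CPM. Those most like miR-148b-3p were miR-15a-5p (0.99), miR-27b-3p (0.88) and miR-29a-5p (0.88). As the highest among all tested loci over 6 points, such values are high by choice.

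The comparison of old with young vesicles asks which miRNAs differ in relative amount with the age of the muscle. All 3 members of the 3p arm had a higher mean in old libraries. miR-152-3p averaged 108 ± 18.0 CPM in old and 71.8 ± 23.0 CPM in young libraries (SD, n = 3 each), a log2 fold change of 0.59 ± 0.26 (SE), or 1.503-fold. miR-148a-3p averaged 18.8 ± 4.29 CPM in old and 11.01 ± 3.72 CPM in young libraries, a log2 fold change of 0.76 ± 0.41, or 1.69-fold. miR-148b-3p averaged 31.5 ± 8.10 CPM in old and 26.7 ± 3.28 CPM in young libraries, a log2 fold change of 0.25 ± 0.30, which is smaller than its standard error. The median of the 3 was 0.59, against 0.04 over the 347 loci tested, of which 52.4% had a positive value.

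No member was called. By edgeR's quasi-likelihood test with an adjusted p under 0.05, 0 of the 3 members passed, where 15 of 347 loci did (4.32%), 12 higher and 3 lower in old. At an unadjusted p under 0.05, 1 member (miR-152-3p) passed, where 22.5% of all loci did. DESeq2's Wald test with an adjusted p under 0.05 called 0 members and 6.63% of all loci. At 1 of the 3 members, miR-152-3p, all old libraries lay above all young ones on TMM-scaled CPM, as they did at 14.1% of the loci tested. The number of loci called rested on single libraries: it was 45 without old replicate 1, 5 without old replicate 2, 29 without old replicate 3, and 6, 8 and 8 without young replicates 1, 2 and 3. No member was called in any of these. Larger log2 fold changes than those of miR-148a-3p, miR-152-3p and miR-148b-3p were found at 7.20%, 11.5% and 29.1% of the loci tested.

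Leaving out old replicate 1, the library that stood apart, gave log2 fold changes of 0.62 for miR-152-3p, 0.73 for miR-148a-3p and 0.43 for miR-148b-3p. Leaving out young replicate 1, in which miR-152-3p and miR-148a-3p were lowest, gave 0.32 for miR-152-3p and 0.49 for miR-148a-3p.

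Markers of muscle and of other cells were read in the same libraries. Over all loci tested, edgeR called 4.32% and DESeq2 6.63%, and 22.5% had an unadjusted p under 0.05 in edgeR. At lists of so few loci, 0 calls do not show that a list stayed the same. Of the 6 tested loci of the muscle list, 4 were called higher in old and 0 lower. The calls were miR-499-5p, miR-1a-3p and both loci of miR-133a-3p, which share 1 mature sequence. The most abundant member, miR-206-3p, was not called, with a log2 fold change of 0.17 ± 0.22 (SE), and neither was miR-133b-3p, with 0.39 ± 0.17. The list for smooth muscle and fibroblasts, 4 miRNAs of which none was at 0, took 3.59% to 4.36% of the counts in old libraries and 2.81% to 3.11% in young ones. Of its 5 loci 1 was called higher in old and 0 lower, its most abundant member miR-143-3p, with 24356 ± 767 CPM in old and 14954 ± 889 CPM in young libraries (SD, n = 3 each). The 5 loci had a median log2 fold change of 0.22, 4 positive and 1 negative, with 3 at an unadjusted p under 0.05. They include both loci of miR-199a-3p, at 0.20 and 0.22, which share 1 mature sequence. The liver list, led by miR-192-5p, took 0.0270% to 0.0476% in old libraries and 0.0234% to 0.0292% in young ones, and 0 of its 3 tested loci were called by edgeR, with 1 at an unadjusted p under 0.05, or by DESeq2. These 3 include both loci of miR-194-5p, which share 1 mature sequence. The liver list and that for smooth muscle and fibroblasts had their highest share in old replicate 1, as the muscle and red blood cell lists did. Red blood cell miRNAs, led by miR-451a, took 4.13% to 4.52% in old and 4.03% to 4.36% in young libraries, with 0 of 3 tested loci called by edgeR (0 at an unadjusted p under 0.05) or DESeq2. Leukocyte miRNAs, led by miR-155-5p, took 0.0882% to 0.108% in old and 0.112% to 0.138% in young libraries, with 0 of 4 tested loci called higher and 1 lower, miR-155-5p itself. The other 3 tested leukocyte loci had positive log2 fold changes, and the median of the 4 was 0.10. By edgeR 2 of the 4 had an unadjusted p under 0.05, in opposite directions. Epithelial miRNAs, led by miR-200a-3p, took 0.00108% to 0.00176% in old and 0.00094% to 0.00117% in young libraries, with 0 of 1 tested locus called by edgeR (0 at an unadjusted p under 0.05) or DESeq2. Defining markers at 0 were miR-122-5p (liver), miR-486-5p (red blood cells), miR-142a-3p (leukocytes) and both strands of miR-126a (endothelium), and each of these lies on a locus that overlaps another, so that its 0 does not bear on the presence of the cell type. The part of these cells in the values of the family was not tested. In RNA from pooled vesicles, a different mix of the cells that shed them and a different amount of a miRNA per vesicle cannot be told apart.

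**Figure D4:**
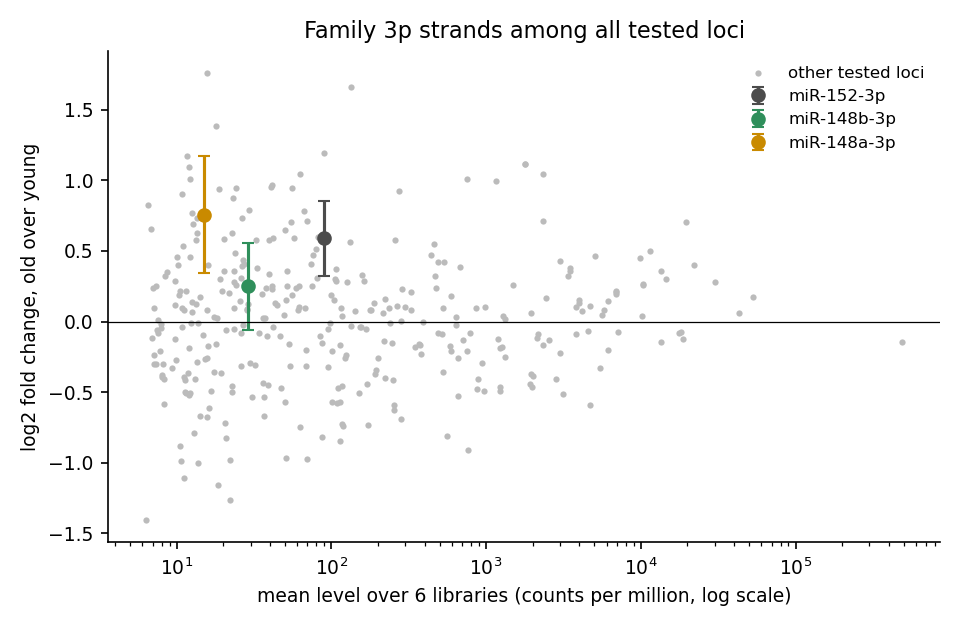
Log2 fold change of old over young against mean level over 6 libraries (CPM, log axis) for the 347 loci tested; grey points are other loci, coloured points the 3p strands of the family with bars of 1 standard error. The values of miR-148a-3p (0.76), miR-152-3p (0.59) and miR-148b-3p (0.25) lie above 0, the line of equal levels.

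The 5p arms, which can act as miRNAs in their own right but are usually degraded, were almost empty. miR-152-5p had 2 counts in each old library and 0, 1 and 1 counts in young replicates 1, 2 and 3. miR-148b-5p had 0, 1 and 3 counts in old replicates 1, 2 and 3 and 1, 2 and 0 counts in young replicates 1, 2 and 3. miR-148a-5p had 0 counts in every library, for which the 95% exact Poisson interval reaches 3.69 counts. It is set here against a floor of 3 counts per library, or 1.81 to 3.03 CPM. None of the 5p arms passed the filter on low counts, and each library was at or under this floor of 3 counts, so no fold between old and young is given.

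Over the 6 libraries together, miR-152-3p had 740 counts against 8 of its 5p arm, so that 98.9% of the counts of the hairpin lay on the 3p arm (95% exact binomial interval 97.9% to 99.5%). For Mir148b it was 244 against 7 counts, or 97.2% (94.3% to 98.9%). For Mir148a it was 121 against 0, a 3p share of 100% (97.0% to 100%). Its pooled 3p counts were 40.3-fold a floor of 3 counts set once for the 6 libraries together, unlike the floor per library above. This fold is not a 95% bound. The difference in arm use between the hairpins was not tested. Among 224 hairpins with both arms outside an overlap and at least 100 counts, the more abundant arm held a median of 98.6% of the counts (quartiles 92.5% and 99.9%). Mir152 and Mir148b lay between these quartiles and Mir148a above the upper one, with a lower share than that of Mir148a at 195 of the 224 hairpins. Mir148a had only 121 counts, however, and its interval of 97.0% to 100% covered both the median and the upper quartile. With counts pooled within a group, the 3p share in old libraries was 98.5% at Mir152 and 96.7% at Mir148b. In young libraries it was 99.4% at Mir152 and 97.7% at Mir148b. The intervals of the groups overlapped, and they leave out the spread between libraries.

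Another family known to repress DNA methyltransferases, in human cells DNMT3A and DNMT3B, is that of miR-29. Its 3 fixed members stood at 4 tested loci, 2 with positive and 2 with negative log2 fold changes. Of these loci 0 were called by edgeR or by DESeq2, where 4.32% and 6.63% of all loci tested were. An unadjusted p under 0.05 in edgeR was found at 0 of them, against 22.5% of all loci tested. At so few loci, 0 calls do not show that the list stayed the same. miR-29a-3p, the most abundant, averaged 4257 ± 392 CPM in old and 4048 ± 432 CPM in young libraries (SD, n = 3 each), a log2 fold change of 0.07 ± 0.16. Its level was far above that of the whole miR-148 and miR-152 family, whose 3p strands summed to 158 ± 26.8 CPM in old and 110 ± 26.1 CPM in young libraries. miR-29c-3p had 64.0 ± 18.5 CPM in old and 59.8 ± 10.5 CPM in young libraries (0.11 ± 0.27), and miR-29b-3p had -0.06 ± 0.23 at Mir29b-2 and -0.04 ± 0.24 at Mir29b-1, loci that share 1 mature sequence.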

How the data were processed

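The deposited table holds raw read counts for each locus of a mature miRNA, made with featureCounts 2.0.6 without strand, overlap or multi-mapping options, per the file headers. Reads were aligned with BWA to mm10, per the submitters' processing notes; adapter trimming is not given in the sources used here. Loci were named by exact position from RefSeq (1734 of 2110), the others from an identical copy or GENCODE M21, and 12 loci stayed unnamed.

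From the counts, old was compared with young by edgeR 4.0.16 (R 4.3.3; filterByExpr with a minimum count of 10, TMM, quasi-likelihood test, two-sided, Benjamini-Hochberg over the 347 loci tested, threshold 0.05), with DESeq2 1.42.0 as an alternative. Standard errors came from the unshrunken coefficient and F. log2 CPM used a prior count of 2. The edgeR procedure was also run on counts simulated with a common dispersion for all loci and no library that stood apart. That setting is simpler than these libraries. Arm use is given as a share, since 5p counts reached 3 at most.

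The members and lists were chosen with earlier results of these data known. Named were all members, the level neighbours, the 3 loci most correlated with each 3p strand, the miR-29 list and the leading marker of a list. The tested loci of the muscle list were named after their values were seen.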

Additional observations from a re-analysis of the deposited data

How the results depend on the processing

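Under the 12 alternatives run, the log2 fold changes of the 3p strands kept their positive sign and none was called: 0.32 to 0.77 for miR-152-3p, 0.49 to 0.96 for miR-148a-3p and 0.05 to 0.43 for miR-148b-3p, each range set by leaving out 1 library. Over all loci, the number called higher in old was 12 and ran from 5 to 25 with 1 library left out, and the number called lower was 3 and ran from 0 to 20. No pairing by replicate number was seen: same-numbered libraries had correlations of deviations of -0.13, 0.02 and -0.15, and 0 of 6 libraries matched their own number best. Over so few libraries these values cannot decide whether the numbers pair them. With the replicate block, 5 loci were called higher and 1 lower, and the 3p strands had 0.62 (miR-152-3p), 0.77 (miR-148a-3p) and 0.23 (miR-148b-3p). The number called lower was 9 by DESeq2's Wald test, 5 without a filter and 5 with identical copies summed; the cause was not tested. Without miR-21a-5p in the total, which makes the total smaller, the family took 0.0301% in old and 0.0225% in young libraries. Counts of 10 to 55 per library at miR-148a-3p and miR-148b-3p limit the precision of their values.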
